A study of Homo sapiens with 16 samples.

Results

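The Notch receptors NOTCH1, NOTCH2, NOTCH3 and NOTCH4, the ligands JAG1, JAG2 and DLL1, and the targets HES1, HEY1 and NRARP were followed in bladder cancer cells given the histone deacetylase inhibitor CM-1758. These 10 genes were taken by their symbols from a table of 35993 gene symbols, and all 10 were among the 21297 genes that passed a filter on low counts. The samples were 16 RNA-seq libraries of the bladder cancer lines 253J, J82, RT112 and TCCSUP, which are 4 established human lines given as wild type by the labels. Each line was grown for 48 h either with CM-1758 at its own IC50, the inhibitory concentration determined for that line (treated) or with 0.01% DMSO as vehicle (control), with 2 libraries from independent experiments in each of the 8 groups. The paper's legends for the RNA-seq figures call the control cells untreated. 253J, J82 and RT112 were kept in DMEM and TCCSUP in EMEM, so that line and medium cannot be told apart for TCCSUP. The IC50, and with it the concentration given, also differed by line. Line and concentration can therefore not be told apart where effects or treated levels are compared between lines. Total counts ran from 27655401 to 32537104 in the 8 control libraries and from 22506431 to 31547585 in the 8 treated libraries.

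Notch receptors are membrane proteins that are cut after binding a ligand on a neighbouring cell, first by an ADAM protease and then by gamma-secretase. The freed intracellular part enters the nucleus and, with the DNA-binding protein RBPJ and a MAML coactivator, switches on targets such as the HES and HEY repressors and NRARP, which in turn limits the pathway. In the urothelium and its tumours the pathway is known both for growth-restraining and for growth-promoting roles, depending on the receptor and the setting.

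The stretch just upstream of HES1 and that of NRARP are shown because both genes are known direct targets, and with CM-1758 HES1 fell in RT112 while NRARP did not pass the test there. In J82 and TCCSUP both genes rose. Promoter sequences from RefSeq (GRCh38.p14, from 250 bases before to 50 bases after the start) matched 8 of the 10 genes, all but DLL1 and HEY1. The RBPJ-type motif GTGNGAA, which includes GTGGGAA, was searched on both strands together with the HES-type motif CACNAG. Capitals mark GTGNGAA on either strand, in the last 130 bases before the start. The HES1 stretch is chr3:194136018-194136147 on the plus strand and the NRARP stretch is chr9:137302272-137302401 on the minus strand.
HES1: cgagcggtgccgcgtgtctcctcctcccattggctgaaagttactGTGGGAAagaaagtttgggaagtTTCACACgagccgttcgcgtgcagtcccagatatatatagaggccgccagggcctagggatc
NRARP: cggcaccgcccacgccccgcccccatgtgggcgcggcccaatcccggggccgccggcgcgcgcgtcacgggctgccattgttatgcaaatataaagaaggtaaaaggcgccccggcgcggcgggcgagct

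HES1 was the only gene of the 8 with GTGNGAA in this window, as GTGGGAA at -85 on the plus strand and as GTGTGAA, read on the minus strand, at -62. Of 35116 promoters of the same length, 13.8% held GTGNGAA, 6.25% held GTGGGAA and 38% held CACNAG. For GTGNGAA, 1 gene of 8 lies near the share of all promoters. HES1 also held CACNAG at -165, -132, -58 and 16, of which the match at -58 overlaps the GTGNGAA match at -62. In all, 6 of the 8 genes held CACNAG. The NRARP match, at -2, runs past the printed stretch, and the others were in NOTCH1 (-1 and 2), NOTCH2 (-4), NOTCH3 (-211) and NOTCH4 (-75). These are matches of letters and not measured binding sites.

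In control cells, RT112 had the highest level of the 4 lines for 8 of the 10 genes, all but NOTCH2 and NOTCH4, which were highest in TCCSUP. Of all genes tested, 24.8% were highest in RT112. The control levels differed between the lines for 10 of the 10 genes (edgeR F test), as they did for 78.8% of all genes tested. Of the 12 epithelial and urothelial markers, all but KRT8 and KRT18 were also highest in RT112 control cells. EPCAM stood in RT112 control cells at 216 CPM (counts on the scale of a common library size) against 0.467 CPM in 253J, 1.24 CPM in J82 and 10.7 CPM in TCCSUP. GATA3 stood at 37.5 CPM in RT112 and at 6.29 CPM or less in the other lines, whereas KRT18 was lowest in RT112, at 855 CPM, and KRT8 was highest in J82, at 3030 CPM. The 4 mesenchymal markers were lowest in RT112. VIM was at 0.444 CPM in RT112, 3.85 CPM in TCCSUP, 296 CPM in J82 and 1499 CPM in 253J. FN1 was at 916 CPM in RT112, 1037 CPM in 253J, 1043 CPM in J82 and 4235 CPM in TCCSUP. CDH2 was at 4.69 CPM in RT112, 525 CPM in J82, 534 CPM in 253J and 584 CPM in TCCSUP. ZEB1 was at 0.428 CPM in RT112, 25.7 CPM in TCCSUP, 30.5 CPM in J82 and 36.3 CPM in 253J. All 12 epithelial and urothelial markers had more than 3 counts in both RT112 control libraries, where they summed to 6936 and 7118 CPM, against 4344 and 3193 CPM in 253J, 1337 and 1459 CPM in TCCSUP and 5970 and 8103 CPM in J82, mostly from keratins. KRT5 was at 0 CPM in the control libraries of 253J and J82. The part of these marker differences in the Notch values was not tested.

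CM-1758 moved the 10 genes in different directions in different lines, mostly upwards in J82 and TCCSUP. In J82, 7 rose and 1 fell, where 24.0% and 18.5% of all genes tested did so. In TCCSUP, 7 rose and 1 fell, against 32.0% and 22.1% of all genes. In 253J, 3 rose and 3 fell, against 28.8% and 22.4%, and in RT112, 1 rose and 3 fell, against 27.4% and 20.2%. The shares in 253J lay near those of all genes. With each line fitted alone, NOTCH2 also rose and JAG2 and DLL1 also fell in RT112, and NOTCH1 also fell in TCCSUP. The same fits lost the calls of NOTCH1 and DLL1 in J82. With the replicate number as a block, the same calls were gained in RT112 and TCCSUP, and that of NRARP in 253J was lost. The median log2 fold change of the 10 genes was 1.49 in J82 and 1.81 in TCCSUP, -0.02 in 253J and -0.14 in RT112, where the median of all genes was 0.05, 0.20, 0.10 and 0.12 in the same order of lines. Past 4-fold and an adjusted p under 0.01, 2 of the 10 genes were higher in 253J (9.43% of all genes), 1 in J82 (8.81%), 4 in TCCSUP (14.2%) and 0 in RT112 (11.4%), and 0 were lower in any line (3.50% of all genes in 253J, 1.24% in J82, 3.31% in TCCSUP and 1.39% in RT112). A gene rose or fell here when its edgeR p-value, adjusted over all 21297 genes within the line, was under 0.05.

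The effect of CM-1758 differed between the 4 lines for 9 of the 10 genes (edgeR F test of the interaction), against 51.9% of all genes tested. Each line had its own concentration, so line and concentration cannot be told apart in these differences. NOTCH1 was the exception, with an adjusted p of 0.0531 by edgeR. Of the 10 genes, JAG1, HES1 and HEY1 rose in at least 1 line and fell in at least 1 other, as 12.9% of all genes did. All 3 fell in RT112 and rose in at least 1 other line, as 3.91% of all genes did. JAG1 also fell in 253J.

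**Figure D1:**
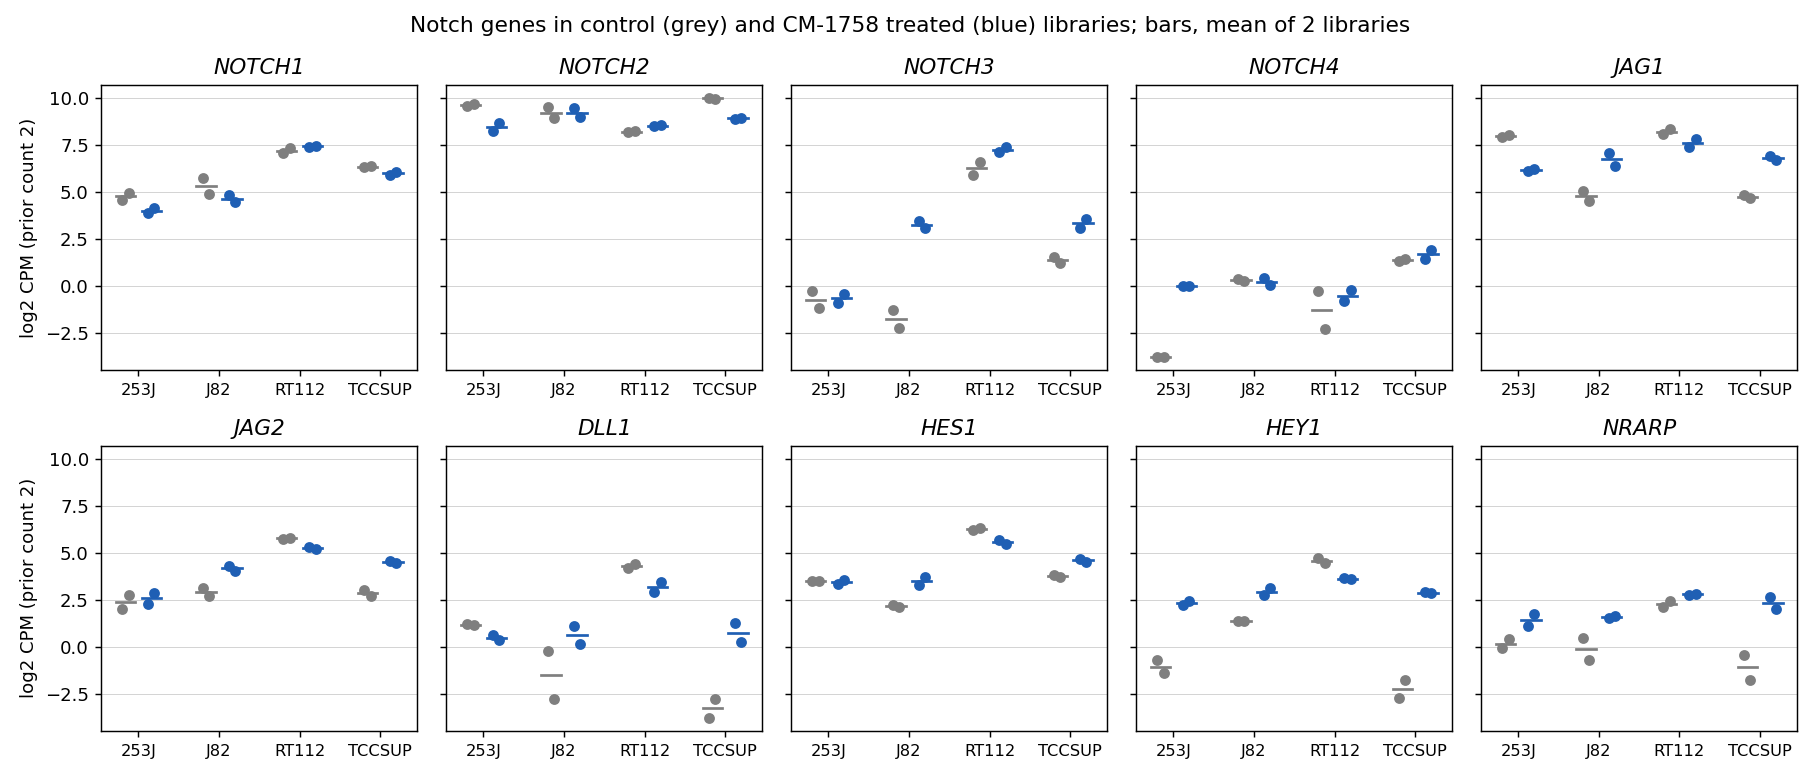
Level of each Notch gene as log2 CPM with a prior count of 2 (vertical axis) in the 4 lines (horizontal axis), with 1 point per library, grey for control and blue for CM-1758, and a bar at the mean of 2 libraries. HES1 and HEY1 in RT112 are highest in control and come down, while in J82 and TCCSUP the blue points lie above the grey ones.

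HES1, a repressor of differentiation genes and a standard readout of Notch activity, rose in J82 and TCCSUP and fell in RT112. In RT112 it stood at 76.4 and 81.1 CPM in the control libraries and at 51.1 and 45.6 CPM in the treated libraries. In J82 it went from 4.67 and 4.25 CPM to 9.67 and 13.1 CPM. In TCCSUP it went from 14.3 and 13.2 CPM to 25.5 and 23.5 CPM. In each of these 3 lines the treated libraries were apart from the control libraries, lower in RT112 and higher in the others. HES1 had a log2 fold change of 1.35 ± 0.17 (SE, n = 2 per group) in J82 (edgeR adjusted p = 1.71e-05). It was 0.83 ± 0.16 in TCCSUP (edgeR adjusted p = 0.000393) and -0.70 ± 0.15 in RT112 (edgeR adjusted p = 0.00128). In 253J the groups overlapped, with 11.3 and 11.4 CPM in control and 10.1 and 11.7 CPM with CM-1758. The 95% interval of the 253J difference ran from -0.40 to 0.28 on the log2 scale (edgeR adjusted p = 0.825), and its sign turned with another scaling of the libraries.

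HEY1, a related repressor, rose in all lines but RT112, where it fell. In TCCSUP it was barely present in control, at 0.0791 and 0.230 CPM (2 and 6 counts), and stood at 7.45 and 7.32 CPM with CM-1758. In 253J it went from 0.543 and 0.306 CPM to 4.63 and 5.37 CPM. In J82 it went from 2.51 CPM in both control libraries to 6.70 and 8.70 CPM. All treated libraries of these 3 lines lay above their controls. RT112 started highest, at 27.0 and 21.8 CPM, and both treated libraries lay below, at 12.6 and 12.4 CPM. HEY1 had a log2 fold change of 5.53 ± 0.37 (SE, n = 2 per group) in TCCSUP (edgeR adjusted p = 3.4e-08) and 3.54 ± 0.32 in 253J (edgeR adjusted p = 4.79e-07). The TCCSUP value ran from 4.97 without control replicate 1 to 6.46 without control replicate 2. The value was 1.62 ± 0.25 in J82 (edgeR adjusted p = 0.00013) and -0.97 ± 0.23 in RT112 (edgeR adjusted p = 0.003). Between RT112 and TCCSUP the effect itself differed by 6.50 on the log2 scale, with a 95% interval of 5.54 to 7.45 (edgeR adjusted p = 1.12e-07).

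NRARP, an ankyrin-repeat protein that binds the Notch transcription complex and dampens it, rose in 253J, J82 and TCCSUP. In TCCSUP it went from 0.673 and 0.230 CPM to 6.40 and 4.01 CPM. In J82 it went from 1.33 and 0.545 CPM to 2.86 and 3.08 CPM. In 253J it went from 0.905 and 1.26 CPM to 2.14 and 3.37 CPM. The treated libraries lay above the control libraries in each of these lines and also in RT112, where NRARP did not pass the test. For NRARP the log2 fold change was 3.52 ± 0.49 (SE, n = 2 per group) in TCCSUP (edgeR adjusted p = 2.76e-05), 1.67 ± 0.45 in J82 (edgeR adjusted p = 0.00709) and 1.35 ± 0.44 in 253J (edgeR adjusted p = 0.0182). In RT112 the control libraries held 4.32 and 5.39 CPM and the treated libraries 6.81 and 7.09 CPM, and the 95% interval of the log2 difference ran from -0.30 to 1.34 (edgeR adjusted p = 0.286). The 253J call was lost without control replicate 2 (edgeR adjusted p = 0.128) or treated replicate 3 (edgeR adjusted p = 0.161) and with the replicate number as a block (edgeR adjusted p = 0.0545), and the J82 call without control replicate 3 (edgeR adjusted p = 0.0761). Leaving out 1 library at a time moved the TCCSUP value between 2.94 (without control replicate 2) and 4.47 (without control replicate 1) and the J82 value between 1.16 (without control replicate 3) and 2.44 (without control replicate 1).

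JAG1, the Jagged ligand with the most transcript per length of the 3 ligands in each of the 8 groups, moved in opposite directions in the 2 pairs of lines. Lines that started high came down. 253J went from 251 and 270 CPM to 70.5 and 75.3 CPM. RT112 went from 278 and 327 CPM to 171 and 228 CPM. Lines that started low went up, so that the treated libraries of J82 and TCCSUP lay above their controls. J82 went from 34.1 and 23.6 CPM to 135 and 85.9 CPM. TCCSUP went from 28.6 and 25.9 CPM to 121 and 107 CPM. The groups did not overlap in any line. The log2 fold change was -1.84 ± 0.22 (SE, n = 2 per group) in 253J (edgeR adjusted p = 6.16e-06) and -0.60 ± 0.21 in RT112 (edgeR adjusted p = 0.0297). It was 1.94 ± 0.22 in J82 (edgeR adjusted p = 8.13e-06) and 2.06 ± 0.22 in TCCSUP (edgeR adjusted p = 2.76e-06). The effects in J82 and TCCSUP differed by 0.13 on the log2 scale, with a 95% interval of -0.52 to 0.78. The RT112 call was lost under RLE normalization (edgeR adjusted p = 0.0564), under scaling by library size alone (edgeR adjusted p = 0.113), with at least 10 counts asked of every library (edgeR adjusted p = 0.0707), and without control replicate 2 (edgeR adjusted p = 0.171) or treated replicate 1 (edgeR adjusted p = 0.231).

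JAG2, the second Jagged ligand, rose in J82 and TCCSUP. It went from 8.85 and 6.47 CPM to 19.9 and 16.8 CPM in J82, a log2 fold change of 1.26 ± 0.24 (SE, n = 2 per group, edgeR adjusted p = 0.000603). It went from 8.19 and 6.62 CPM to 23.9 and 22.2 CPM in TCCSUP, a log2 fold change of 1.64 ± 0.24 (edgeR adjusted p = 4.72e-05). The treated libraries of both lines lay above the controls. In RT112 the treated libraries, at 40.1 and 37.5 CPM, lay below the control libraries, at 53.6 and 56.6 CPM, and the log2 difference of -0.51 did not pass (edgeR adjusted p = 0.0733, 95% interval -0.98 to -0.03). JAG2 passed as lower in RT112 with that line fitted alone, by edgeR and by DESeq2, and with the replicate number as a block. In 253J the groups overlapped and the 95% interval was -0.35 to 0.72 (edgeR adjusted p = 0.581).

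DLL1, a Delta-like ligand, was hardly transcribed in TCCSUP control cells and rose there with CM-1758. Its control counts in TCCSUP were 0 and 2, at or under the floor of 3 counts used here, and the treated libraries held 2.32 and 1.14 CPM, at least 14.8-fold higher when the control is set to that floor in each library (edgeR adjusted p = 0.000305). Leaving out 1 library at a time moved the fitted log2 fold change in TCCSUP between 4.42 and 8.57, so its size is imprecise. In J82 DLL1 went from 0.798 and 0.0727 CPM to 2.11 and 1.05 CPM. Both J82 treated libraries lay above both controls, but the controls themselves were far apart, at 21 and 2 counts. The J82 log2 fold change was 1.86 ± 0.63 (SE, n = 2 per group, edgeR adjusted p = 0.0271), and it ran from 0.98 without control replicate 3 (edgeR adjusted p = 0.197) to 4.35 without control replicate 1 (edgeR adjusted p = 0.00112), with 1.36 without treated replicate 1 (edgeR adjusted p = 0.174). With J82 fitted alone the call was also lost (adjusted p = 0.111 by edgeR and 0.161 by DESeq2). RT112, the line with the most DLL1, held 18.8 and 21.5 CPM in control and 7.71 and 10.8 CPM with CM-1758. That log2 difference of -1.12 did not pass (edgeR adjusted p = 0.0557, 95% interval -2.09 to -0.14). It passed as lower with RT112 fitted alone, by edgeR and by DESeq2, and with the replicate number as a block. In 253J the log2 difference was -0.71, with a 95% interval of -1.85 to 0.43 (edgeR adjusted p = 0.292).

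**Figure D2:**
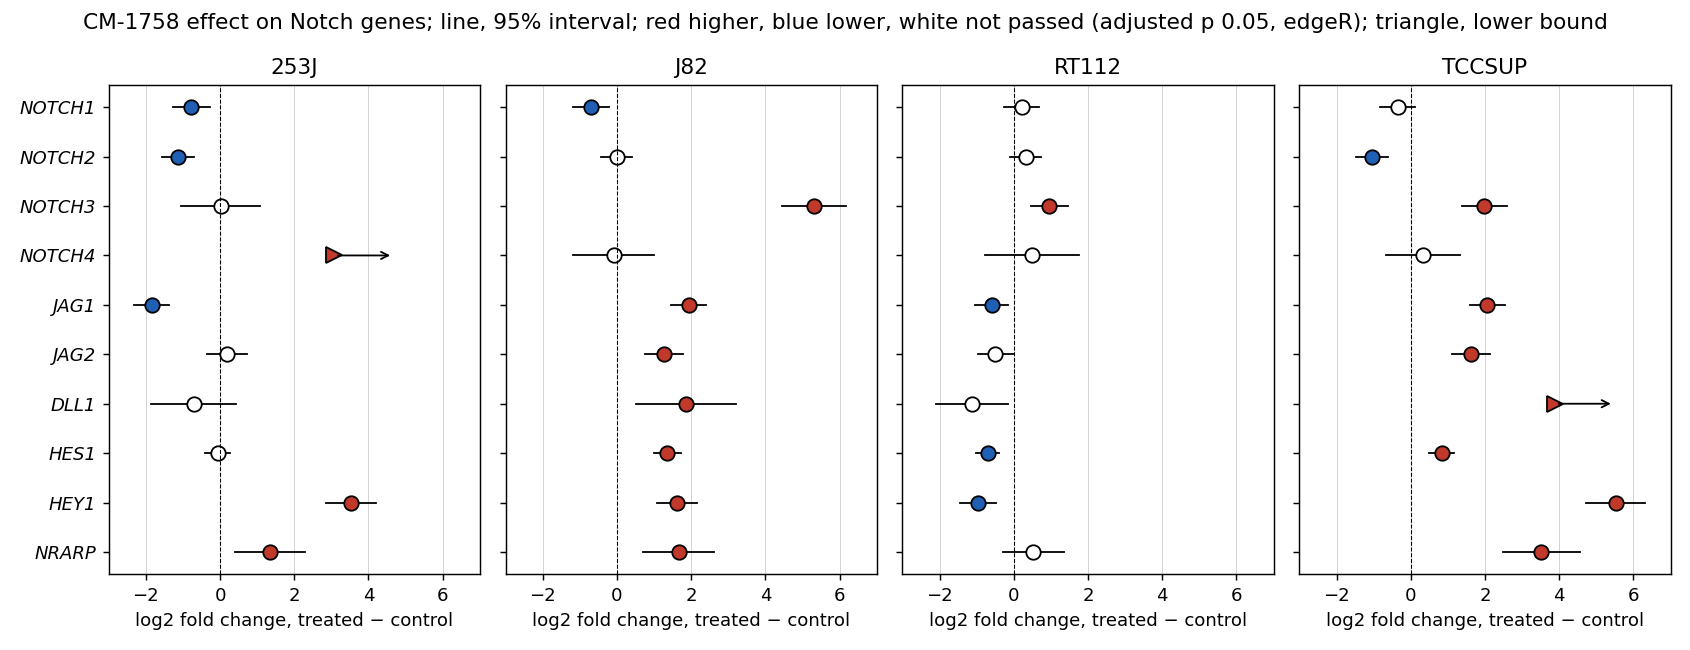
Log2 fold change, treated minus control (horizontal axis), of each Notch gene (vertical axis) in the 4 lines, with 95% intervals from edgeR, red for higher, blue for lower and white for not passed. Triangles with arrows are lower bounds for NOTCH4 in 253J and DLL1 in TCCSUP, whose control counts are at or under 3. J82 and TCCSUP each show 7 red symbols, and RT112 shows 1.

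NOTCH3, a receptor best known from smooth muscle and several carcinomas, rose in every line but 253J. In J82 it went from near absence, at 0.342 and 0.145 CPM (9 and 4 counts), to 11.0 and 8.53 CPM, a ratio of 40.1 between the group means. In TCCSUP it went from 2.85 and 2.34 CPM to 8.65 and 11.9 CPM. In RT112, where it was highest, it went from 61.7 and 97.6 CPM to 139 and 170 CPM. In these 3 lines each treated library lay above both controls. For NOTCH3 the log2 fold change was 5.31 ± 0.41 (SE, n = 2 per group) in J82 (edgeR adjusted p = 2.15e-07), 1.98 ± 0.28 in TCCSUP (edgeR adjusted p = 3.91e-05) and 0.96 ± 0.23 in RT112 (edgeR adjusted p = 0.00334). The J82 value ran from 4.82 without control replicate 3 to 6.02 without control replicate 1. The RT112 call was lost without control replicate 1 (edgeR adjusted p = 0.0647). In 253J it stood at 0.760 and 0.383 CPM in control and at 0.475 and 0.675 CPM with CM-1758, overlapping groups with a 95% interval of -1.06 to 1.09 on the log2 scale.

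NOTCH2, the receptor with the most transcript per length in each of the 8 groups, fell in 253J and TCCSUP. It went from 774 and 828 CPM to 312 and 416 CPM in 253J. It went from 1043 and 1001 CPM to 488 and 504 CPM in TCCSUP. The treated libraries of both lines lay wholly below the controls. The log2 fold change was -1.14 ± 0.20 (SE, n = 2 per group) in 253J (edgeR adjusted p = 0.000219) and -1.04 ± 0.20 in TCCSUP (edgeR adjusted p = 0.000461). In J82 the groups overlapped, with 735 and 491 CPM in control and 707 and 515 CPM with CM-1758, and the 95% interval was -0.42 to 0.42. In RT112, the line with the least NOTCH2 in control, it stood there at 298 and 303 CPM. With CM-1758 it stood at 365 and 387 CPM (edgeR adjusted p = 0.193). It passed as higher with RT112 fitted alone, by edgeR and by DESeq2, and with the replicate number as a block. NOTCH2 has near-identical partial copies, so its counts are uncertain to the extent that reads were shared. The copy listed in the table, NOTCH2NLA, ran from 30.7 to 132 CPM over the 16 libraries and passed the test in no line, with an edgeR adjusted p of 0.0501 in RT112.

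NOTCH1, the receptor with both tumour-suppressing and oncogenic roles in cancer, fell in 253J and J82. In 253J it went from 24.3 and 31.8 CPM to 14.9 and 17.8 CPM, and in J82 from 53.4 and 29.7 CPM to 29.0 and 22.3 CPM. The groups were apart in both lines, narrowly so in J82. The log2 fold change was -0.78 ± 0.23 (SE, n = 2 per group) in 253J (edgeR adjusted p = 0.0112) and -0.69 ± 0.23 in J82 (edgeR adjusted p = 0.0229). The J82 value was -0.21 without control replicate 1 (edgeR adjusted p = 0.459), -0.51 without treated replicate 3 (edgeR adjusted p = 0.172) and -1.05 without control replicate 3 (edgeR adjusted p = 0.000658). With J82 fitted alone the call was lost (adjusted p = 0.0980 by edgeR and 0.0986 by DESeq2). The 253J call was lost without control replicate 3 (edgeR adjusted p = 0.112) or treated replicate 1 (edgeR adjusted p = 0.0878), and both calls were lost under scaling by library size alone. In TCCSUP it held 80.4 and 84.2 CPM in control and 61.7 and 67.4 CPM with CM-1758, with a 95% interval of -0.83 to 0.13. It passed as lower with TCCSUP fitted alone, by edgeR and by DESeq2, and with the replicate number as a block. In RT112 it held 136 and 165 CPM in control and 173 and 177 CPM with CM-1758, with a 95% interval of -0.25 to 0.69.

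NOTCH4, the receptor known from endothelium, was low in all lines and changed in 253J. It had 0 counts in both 253J control libraries, and 24 and 28 counts (0.951 and 0.945 CPM) in the treated libraries, at least 8.48-fold higher with the control set to 3 counts in each library (edgeR adjusted p = 0.000171). In the other lines it lay between 0.136 and 3.82 CPM and the groups overlapped. Without RT112 control replicate 1 its RT112 log2 difference went from 0.50 to 2.23 (edgeR adjusted p = 0.0221). The endothelial markers PECAM1 and CDH5 were at 0 CPM in 253J control cells and at 0.0506 and 0.139 CPM with CM-1758. In the same list and line, KDR went from 0 to 0.0396 CPM, VWF rose from 0.172 to 1.92 CPM (edgeR adjusted p = 0.000555) and TEK fell from 2.64 to 1.41 CPM (edgeR adjusted p = 0.00424). Their part in the NOTCH4 result was not tested.

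Per length of summed exons (GENCODE release 29), NOTCH2 was followed by NOTCH1 among the receptors in each of the 8 groups. NOTCH2 stood at 63.6 CPM per kb in TCCSUP control cells and at 30.9 with CM-1758, against 8.84 and 6.94 CPM per kb for NOTCH1. In RT112 the receptors were closer, with NOTCH2 at 18.7, NOTCH1 at 16.2 and NOTCH3 at 9.19 CPM per kb in control and at 23.4, 18.8 and 17.8 CPM per kb with CM-1758. Among the ligands of RT112, JAG1 went from 51.0 to 33.6 CPM per kb, against 9.44 to 6.65 for JAG2 and 6.34 to 2.92 for DLL1. HES1 was the target with the most transcript per length in each of the 8 groups, at 49.9 CPM per kb in RT112 control cells and 2.83 CPM per kb in J82 control cells. As these are bulk libraries, fewer cells with a transcript and less transcript per cell cannot be told apart.

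The range of the 4 line means was narrower in treated than in control cells for 9 of the 10 genes, all but NOTCH1, beside 53.2% of all genes tested. The change of the range was not tested. The 53.2% covers all genes whatever their control range, and the share over genes of like control range was not determined. For HEY1 the range went from 6.82 to 1.31 on the log2 CPM scale, for DLL1 from 7.58 to 2.69, for JAG1 from 3.47 to 1.44 and for HES1 from 4.12 to 2.14. For NOTCH3 the ranges were close, at 8.01 and 7.91. Single pairs of lines also lay farther apart in treated cells, as 253J and TCCSUP did for JAG2, by 0.45 in control and 1.90 with CM-1758, and for HES1, by 0.28 and 1.17, and as 253J and RT112 did for NOTCH3, by 7.10 and 8.04. For the first pair the effect of CM-1758 itself differed between the lines (edgeR adjusted p = 0.00556 for JAG2 and 0.00734 for HES1), and for NOTCH3 in the second that difference did not pass (edgeR adjusted p = 0.234). Where a control library had 0 counts, as for DLL1 and NOTCH4, the prior count of 2 sets the lower end of the range. NOTCH2, JAG1, HES1 and HEY1 fell in the line that had the highest control level, as 31.0% of all genes did. For NOTCH2 and JAG1 that line did not differ from 253J in control (edgeR adjusted p = 0.149 and 0.423), and both also fell in 253J. The same control libraries set the highest line and enter the fold change, which favours a fall there. The lines still differed in treated cells for 10 of the 10 genes (edgeR F test), against 83.7% of all genes.

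**Figure D3:**
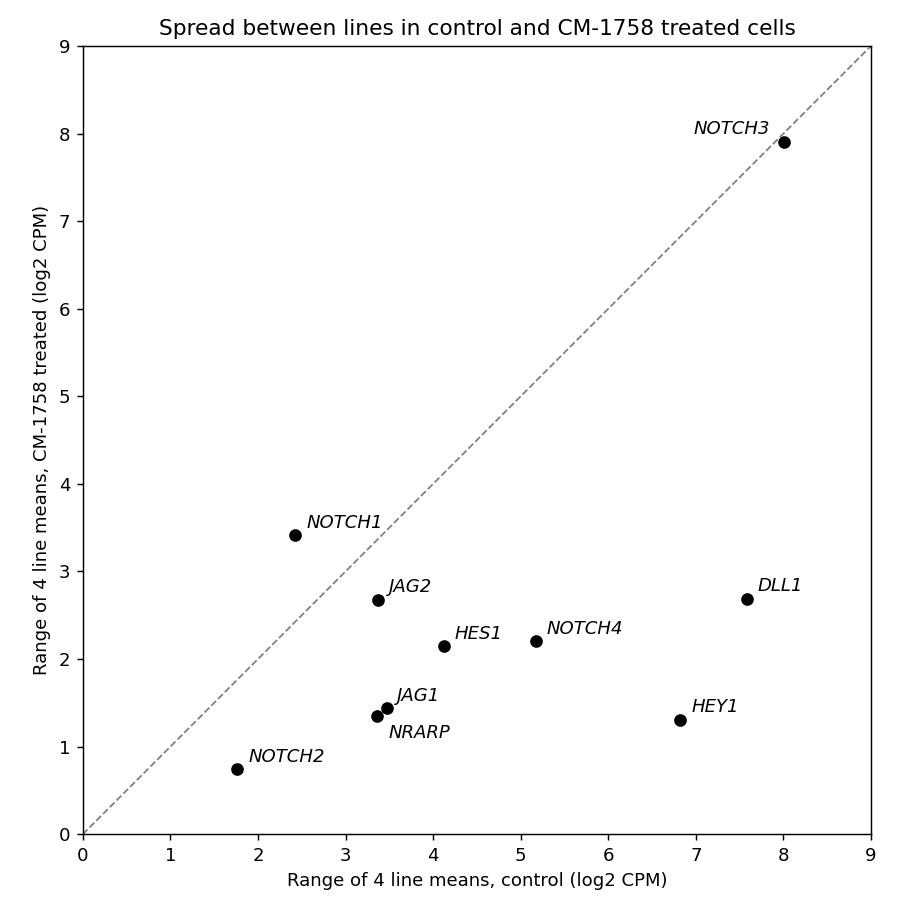
Range of the 4 line means of log2 CPM in control cells (horizontal axis) against CM-1758 treated cells (vertical axis), with 1 point per Notch gene and a dashed line where both are equal. NOTCH1 lies above the dashed line and the other 9 genes lie below it, HEY1 and DLL1 farthest.

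RT112 stayed the highest line for HES1 and HEY1, by less in treated cells. In control cells it exceeded the next line for HES1 by 2.52 on the log2 scale (edgeR adjusted p = 3.47e-09) and for HEY1 by 3.28 (edgeR adjusted p = 4.1e-08), whereas for JAG1 the difference between RT112 and 253J was 0.22 and did not pass (edgeR adjusted p = 0.423). With CM-1758 it exceeded the next line by 0.98 for HES1 (edgeR adjusted p = 7.51e-05) and by 0.69 for HEY1 (edgeR adjusted p = 0.0211). For JAG1, 253J was above J82 by 3.17 in control (edgeR adjusted p = 1.89e-08) and J82 was above 253J by 0.60 with CM-1758 (edgeR adjusted p = 0.0273). Treated J82 and TCCSUP are compared gene by gene, as the share of all genes that differed between them was not determined. Between them the edgeR adjusted p was 0.101 for NRARP and 0.886 for JAG1. The difference did not pass for these genes or for NOTCH2, NOTCH3, JAG2, DLL1 and HEY1. It passed for HES1 (1.10, edgeR adjusted p = 3.94e-05), NOTCH1 (1.33, edgeR adjusted p = 0.000221) and NOTCH4 (1.52, edgeR adjusted p = 0.0192), each higher in TCCSUP. The control order for HEY1 was RT112, J82, 253J and TCCSUP, with each step past the test, and for NOTCH1 it was RT112, TCCSUP, J82 and 253J in control and treated cells alike.

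Beyond these genes, 67 other genes of the pathway were listed in 5 groups, of which 63 passed the filter on low counts (DLK1, RBPJL, HES3 and HES5 did not). Of the 63, 22 rose and 21 fell in TCCSUP, 26 rose and 12 fell in RT112, 20 rose and 16 fell in J82, and 17 rose and 20 fell in 253J. As shares, 34.9% rose and 33.3% fell in TCCSUP (32.0% and 22.1% of all genes), 41.3% and 19.0% in RT112 (27.4% and 20.2%), 31.7% and 25.4% in J82 (24.0% and 18.5%) and 27.0% and 31.7% in 253J (28.8% and 22.4%). Their median log2 fold change was 0.02, 0.33, 0.00 and 0.04 in the same order. The count lower in J82 was 9 without J82 control replicate 1 and 7 without treated replicate 3, and the count higher in RT112 was 15 without RT112 control replicate 1 and 17 without treated replicate 2.

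The machinery that cuts and glycosylates the receptors held more genes that fell than rose in each line. Of its 14 genes, 10 fell in TCCSUP, 6 in RT112, 6 in J82 and 13 in 253J, while 2, 1, 3 and 0 rose in the same order. The median log2 fold change was -0.90 in TCCSUP, -0.29 in RT112, -0.21 in J82 and -1.36 in 253J, beside 0.20, 0.12, 0.05 and 0.10 for all genes. Of all genes, 22.1%, 20.2%, 18.5% and 22.4% fell and 32.0%, 27.4%, 24.0% and 28.8% rose. The 21.4% that rose in J82 lay near the share of all genes. NCSTN and APH1A, subunits of gamma-secretase, POGLUT1, which adds O-glucose to Notch, and RFNG, a Fringe glycosyltransferase, fell in all 4 lines. NCSTN went from 40.8 and 43.5 CPM to 8.56 and 12.8 CPM in 253J, a log2 fold change of -1.98 ± 0.31 (SE, n = 2 per group, edgeR adjusted p = 7.39e-05), and its log2 fold change was -1.87 in TCCSUP, -0.98 in RT112 and -1.22 in J82. APH1A went from 263 and 234 CPM to 90.8 and 76.8 CPM in RT112, a log2 fold change of -1.57 ± 0.14 (edgeR adjusted p = 8.05e-07). POGLUT1 had its smallest change in J82, at -0.52 on the log2 scale, and its largest in 253J, at -1.78. ADAM10, the protease of the first cut, fell by 2.52 on the log2 scale in 253J and by 1.34 in TCCSUP, while its log2 difference was 0.16 in J82 and -0.15 in RT112, neither past the test.

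Of the 8 remaining ligands tested, 5 rose in TCCSUP and 4 in each of the other lines, against 1 that fell in each line but J82, where 0 fell. These are 62.5% and 50% that rose, beside 32.0% of all genes in TCCSUP, 27.4% in RT112, 24.0% in J82 and 28.8% in 253J, and 12.5% or 0% that fell, beside 22.1%, 20.2%, 18.5% and 22.4%. DNER and CNTN1, noncanonical ligands known from neurons, rose in all 4 lines. DNER went from 0.458 and 0.407 CPM to 55.9 and 51.2 CPM in RT112 and from 0.616 and 0.728 CPM to 63.1 and 72.1 CPM in 253J, while in TCCSUP, where it was already at 157 and 162 CPM, it reached 225 and 218 CPM. CNTN1 had log2 fold changes from 1.90 in RT112 to 4.14 in TCCSUP. EGFL7, a secreted endothelial factor that binds Notch, went from 0.266 and 0.0727 CPM to 12.9 and 13.9 CPM in J82. It also rose in TCCSUP, by 2.45 on the log2 scale (edgeR adjusted p = 2.23e-07), and fell in 253J from 135 and 165 CPM to 68.8 and 64.5 CPM (edgeR adjusted p = 6.26e-05). DLK2, a noncanonical ligand related to Delta, fell in RT112 from 21.7 and 18.8 CPM to 2.07 and 1.75 CPM, a log2 fold change of -3.40 ± 0.34 (SE, n = 2 per group, edgeR adjusted p = 4.98e-06).

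Of the 6 other HES and HEY genes tested, 5 rose in TCCSUP, 5 in RT112, 4 in J82 and 3 in 253J, while 1 fell in RT112 and 1 in J82. Of all genes, 32.0%, 27.4%, 24.0% and 28.8% rose in these lines, and 22.1%, 20.2%, 18.5% and 22.4% fell. The 16.7% of the list that fell in RT112 and in J82 lay near those shares. HES6, which counteracts HES1, and HES7, known from the segmentation clock, rose in all 4 lines, HES6 by 2.12 in TCCSUP, 1.94 in RT112, 0.86 in J82 and 0.52 in 253J on the log2 scale. HES2 went from 0.190 and 0 CPM to 8.88 and 10.3 CPM in J82 and from 0.673 and 0.306 CPM to 21.0 and 17.8 CPM in TCCSUP. In RT112, where HES1 and HEY1 fell, HES2 rose by 0.85 on the log2 scale (edgeR adjusted p = 0.0253).

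Among the 20 nuclear factors and corepressors tested, 5 rose and 5 fell in 253J, 5 rose and 7 fell in J82, 7 rose and 3 fell in RT112, and 5 rose and 7 fell in TCCSUP. The shares that rose and fell were 25% and 35% in TCCSUP (32.0% and 22.1% of all genes), 35% and 15% in RT112 (27.4% and 20.2%), 25% and 35% in J82 (24.0% and 18.5%) and 25% and 25% in 253J (28.8% and 22.4%), the last close to those of all genes. RBPJ, the DNA-binding factor of the pathway, passed the test in no line, with log2 differences from -0.15 in TCCSUP to 0.26 in 253J. MAML3, a coactivator, rose in all 4 lines, by 2.31 in J82 and 0.66 in RT112 on the log2 scale, and CTBP1, a corepressor, fell in all 4 lines, by 0.73 in 253J and 1.48 in TCCSUP. TLE4, a Groucho corepressor, rose in RT112 from 2.88 and 2.37 CPM to 16.9 and 20.7 CPM and fell in 253J and TCCSUP.

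Of the 15 genes of endocytosis and turnover, 5 rose and 1 fell in 253J, 4 rose and 2 fell in J82, 9 rose and 1 fell in RT112, and 5 rose and 3 fell in TCCSUP. The share that rose was 33.3% in TCCSUP, 26.7% in J82 and 33.3% in 253J, close to the 32.0%, 24.0% and 28.8% of all genes, and 60% in RT112, beside 27.4%. The share that fell was 20%, 13.3%, 6.67% and 6.67% in the same order, beside 22.1%, 18.5%, 22.4% and 20.2%. DTX3L, a Deltex-type ubiquitin ligase, fell in J82 from 507 and 449 CPM to 80.1 and 33.1 CPM, a log2 fold change of -3.08 ± 0.29 (SE, n = 2 per group, edgeR adjusted p = 1.12e-06), and by 2.30 on the log2 scale in TCCSUP. DTX3L also fell in 253J, by 1.40 on the log2 scale (edgeR adjusted p = 0.000548), and did not pass in RT112 (edgeR adjusted p = 0.0528). DTX3, its relative, fell in J82 by 1.68 and in TCCSUP by 1.43 on the log2 scale. DTX3 rose in RT112 by 1.30 from a low level.

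**Figure D4:**
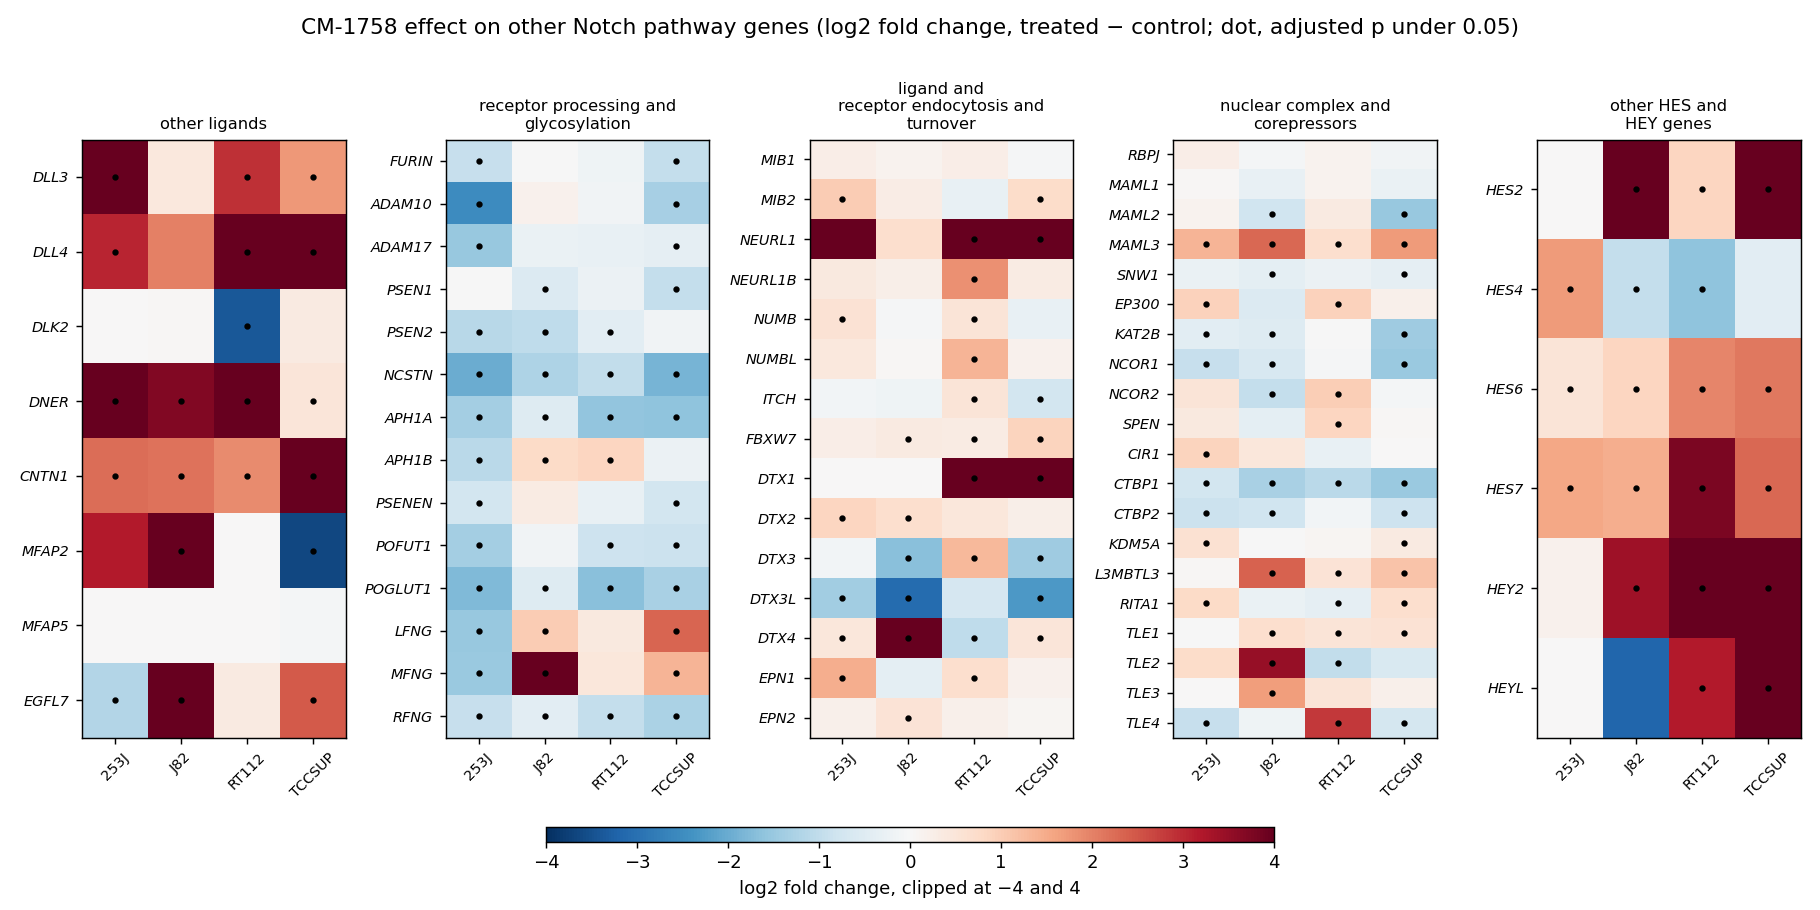
Log2 fold change, treated minus control, of the 63 other pathway genes (rows, in 5 panels) in the 4 lines (columns), clipped at -4 and 4, with a dot where the adjusted p was under 0.05. Colours of genes with almost no counts in either group are imprecise. The panel of receptor processing and glycosylation is mostly blue in 253J, where 13 of 14 genes carry a dot.

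By the pattern over all 16 libraries, each gene was compared with 14209 others (14210 for NOTCH4) as a description, since the libraries share lines and treatment. The closest to HES1 were TRPM2 and EPN3 (Pearson r of log2 CPM 0.980 and 0.977). The closest to HEY1 were CHN2 and PARS2 (0.974 and 0.944), to NRARP RGS16 and ENGASE (0.971 and 0.952) and to NOTCH3 RABGAP1L and FGFBP1 (0.976 for both). The closest to JAG1 were SH3PXD2A and IGSF3 (0.953 and 0.941), to JAG2 ESAM and AGAP11 (0.966 and 0.965) and to DLL1 MCTP2 and WNK2 (0.971 and 0.969). The closest to NOTCH1 were WWP2 and TMEM63A (0.966 and 0.962), to NOTCH2 PRSS23 and SLC4A7 (0.951 and 0.940) and to NOTCH4 PDP1 and KLC1 (0.942 and 0.930).

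Epithelial and mesenchymal markers also moved with CM-1758. Of the 12 epithelial and urothelial markers, 4 rose and 5 fell in TCCSUP, 2 rose and 3 fell in RT112, 5 rose and 1 fell in J82, and 3 rose and 4 fell in 253J, so that the list moved in both directions in each line. In TCCSUP the fall of KRT5 rests on 1 control library. KRT5 stood there at 0 and 0.383 CPM in control and at 0 CPM in both treated libraries, and the groups overlapped. Of all genes, 32.0% rose and 22.1% fell in TCCSUP, and 27.4% rose and 20.2% fell in RT112. In J82 these shares were 24.0% and 18.5%, and in 253J 28.8% and 22.4%. CDH1 fell by 2.80 in 253J and rose by 2.77 in J82 and by 0.90 in RT112 on the log2 scale. KRT18 fell by 2.57 in TCCSUP and from 2327 to 766 CPM in 253J and rose by 0.66 in J82. TP63 rose by 6.35 in 253J and by 2.10 in TCCSUP, and KRT20 rose in all 4 lines. Of the 4 mesenchymal markers, 4 rose in RT112, where VIM rose by 4.23, ZEB1 by 3.45, CDH2 by 2.53 and FN1 by 0.79 on the log2 scale. With CM-1758, VIM stood there at 8.51 CPM, ZEB1 at 4.78 CPM and CDH2 at 27.1 CPM. For each of these RT112 was still the lowest of the 4 treated lines. FN1 stood at 1585 CPM in treated RT112, above treated 253J at 926 CPM. In TCCSUP, VIM rose by 1.93 while CDH2 fell by 1.39 and FN1 by 1.31. In J82, FN1 rose by 1.79 and ZEB1 by 0.92 while VIM fell by 0.98, and in 253J 1 fell, CDH2, by 1.86. The part of these changes in the Notch results was not tested.

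Of the 5 leukocyte markers, the summed level ran from 0.0654 CPM in 1 RT112 control library to 21.4 CPM in 1 TCCSUP control library, where PTPRC and CD14 were the most abundant. The sum hides opposite changes in TCCSUP, where PTPRC fell from 9.58 to 1.12 CPM (edgeR adjusted p = 0.00188) and CSF1R rose from 0.546 to 9.70 CPM (edgeR adjusted p = 1.1e-05). CSF1R also rose in 253J and RT112, to 2.00 and 1.55 CPM, CD14 rose in RT112 from 0 to 1.16 CPM (edgeR adjusted p = 2.35e-05) and PTPRC rose in J82 from 0.0925 to 0.922 CPM (edgeR adjusted p = 0.0211). Of the 5 endothelial markers, the summed level was 227 and 194 CPM in TCCSUP control cells and 18.3 and 20.3 CPM in treated ones, almost all of it TEK in control. TEK fell from 209 to 13.3 CPM (edgeR adjusted p = 2.28e-09), while KDR rose from 0.0198 to 1.04 CPM (edgeR adjusted p = 0.000255) and VWF from 0.842 to 3.80 CPM (edgeR adjusted p = 0.00335). In the same cells PECAM1 stood at 0.0383 CPM in control and 0.215 CPM with CM-1758 and CDH5 at 0.310 and 0.939 CPM, and neither passed the test. The part of the endothelial and leukocyte markers in the Notch results of any line was not tested.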

How the data were processed

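RNA was sequenced from 16 libraries as stranded, ribosomal RNA depleted total RNA. The authors deposited raw counts of reads per gene symbol, and the submitters' processing notes name HISAT2, StringTie and GRCh37, with no version or role. The annotation is not given in the sources used here. All columns matched a sample, and 5098 symbols had no count. Counts were filtered (filterByExpr, 8 groups), scaled by TMM and tested with edgeR 4.0.16 (quasi-likelihood, R 4.3.3), leaving 8 residual degrees of freedom and a common biological coefficient of variation of 0.153. The p-values were adjusted by Benjamini-Hochberg over 21297 genes per contrast, and SE is the log2 fold change over the square root of F. Alternatives were RLE, library size alone, DESeq2 1.42.0 (all lines together, and each alone), edgeR by line, count filters, thresholds, a replicate block and leaving out each library. The fit was tested on simulated data. Members, lists and tests were chosen with earlier results of these data known. Named pathway genes passed in 1 direction in all 4 lines or were, by line, the 2 highest and 2 lowest of those that passed with groups apart and mean log2 CPM above 0, and RBPJ was added after its values were seen. Floors of 3 counts cover counting error only.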

Additional observations from a re-analysis of the deposited data

Results flagged for a closer look

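The effect of CM-1758 differed between the 4 lines for 9 of the 10 genes by the edgeR F test of the interaction. These are given as values, and line and concentration cannot be told apart in them. The adjusted p was 1.74e-07 for HEY1, whose log2 fold change ran from -0.97 in RT112 to 5.53 in TCCSUP. It was 2.54e-07 for JAG1, from -1.84 in 253J to 2.06 in TCCSUP by edgeR, and 1.29e-05 for HES1, from -0.70 in RT112 to 1.35 in J82. For NOTCH3 the edgeR adjusted p was 2.22e-05, from 0.01 in 253J to 5.31 in J82, and for JAG2 it was 0.000241, from -0.51 in RT112 to 1.64 in TCCSUP. For DLL1 the edgeR adjusted p was 0.000512, with RT112 lowest at -1.12 and TCCSUP at least 14.8-fold higher. For NOTCH2 it was 0.00075 by edgeR, from -1.14 in 253J to 0.32 in RT112. For NOTCH4 it was 0.00327 by edgeR, with 253J at least 8.48-fold higher and J82 lowest at -0.09. For NRARP it was 0.00676 by edgeR, from 0.52 in RT112 to 3.52 in TCCSUP.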

How the results depend on the processing

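Of 540 alternative values of the 40 log2 fold changes, 486 kept their side of the threshold without turning a called direction, 41 lost the call, 13 gained one and 0 reversed a called direction. Scaling by library size alone moved the median of all genes by 0.31 in TCCSUP, 0.15 in RT112, 0.15 in J82 and 0.27 in 253J (log2).

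At least 10 counts in every library left 5 of the 10 genes, of which 3 rose in TCCSUP, 0 in RT112, 3 in J82 and 0 in 253J and 1 fell in RT112, where JAG1 was tested and lost its call, while 11 other pathway genes rose in TCCSUP, and 5 passed each F test. At a log2 fold change over 2 and adjusted p under 0.01, the genes that fell were 0 in each line, 1 rose in J82, 0 in RT112 and 4 in TCCSUP, while of the other pathway genes 3 rose and 1 fell in 253J, 11 and 1 in J82, 8 and 1 in RT112 and 10 and 2 in TCCSUP. At adjusted p under 0.01 alone, 0 fell in J82 and 17 other pathway genes rose in RT112. With library size alone, 0 of the 10 genes and 10 other pathway genes fell in J82. With each line fitted alone, by DESeq2 and by edgeR, 0 of the 10 and 9 other genes fell in J82, 2 rose and 5 fell in RT112, and 2 fell in TCCSUP, as NOTCH1 in TCCSUP and NOTCH2, JAG2 and DLL1 in RT112 passed while NOTCH1 and DLL1 in J82 did not. The cause was not tested.

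The replicate numbers were shared by 2 libraries per treatment in J82, RT112 and TCCSUP, with deviation correlations of 0.218, 0.0427 and 0.0173. In 253J they were shared by 1. The labels give only a number, and whether it marks a shared day or batch, as it could in J82, was not tested. With the replicate block, 2 rose and 5 fell in RT112 and 2 fell in TCCSUP, and NRARP in 253J had an edgeR adjusted p of 0.0545.

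Leaving out 1 library, with the lone sample assumed to vary like the other groups, gave 2 to 3 genes higher and 2 to 3 lower in 253J, 5 to 7 and 0 to 1 in J82, 1 to 1 and 2 to 3 in RT112, and 7 to 7 and 1 to 1 in TCCSUP. For the other pathway genes it gave 12 to 15 higher and 19 to 20 lower in 253J, 17 to 21 and 7 to 17 in J82, 15 to 20 and 8 to 9 in RT112, and 17 to 20 and 19 to 20 in TCCSUP. The interaction passed for 9 to 10 genes. With 2 libraries per group and control counts of 9 or fewer for HEY1, DLL1 or NOTCH3 in some lines, the size of these fold changes is imprecise, as is that of NRARP in TCCSUP and J82 when 1 library is left out.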
